A study of Mus musculus with 8 samples.

Results

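The nuclear genes of the mitochondrial respiratory chain and the ATP synthase were followed in mouse suprachiasmatic nucleus (SCN), the part of the hypothalamus whose neurons set daily rhythms for the body. A gene was taken where its single annotated symbol starts with Nduf, Uqcr or Atp5, starts with Cox4, Cox5, Cox6, Cox7 or Cox8, or is Sdha, Sdhb, Sdhc, Sdhd, Cyc1 or Cycs. This gave 91 of the 19938 genes with a probe set of their own, and the brightest probe set by its mean over the 8 arrays stood for each gene. Of the 91, 87 lay above the filter on dim probe sets and were tested among 12452 genes in all. By symbol the tested genes were 35 subunits of complex I, 7 assembly factors of complex I (Ndufaf), 4 genes of complex II, 9 of complex III, the gene of cytochrome c, 14 of complex IV and 17 of complex V. Cox7c and Ndufb4 shared their probe sets with other symbols and were not analysed here.

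All mice were C57BL/6J. The 4 groups were Gpr176-/- mice at CT18, Gpr176-/- mice at CT6, wild-type mice at CT18 and wild-type mice at CT6, written KO CT18, KO CT6, WT CT18 and WT CT6. Gpr176 is a receptor of the G protein-coupled family that SCN neurons make and for which no ligand is established, and CT6 and CT18 are subjective day and subjective night. Every group had been kept on 12 h of light and 12 h of dark for over 2 weeks before release into constant darkness, so none of the arrays was taken under light. The SCN was cut out by laser microdissection and tissue of 10 animals was pooled for 1 array, with 2 arrays (A and B, separate biological pools) per group. A value therefore stands for a pool, and the spread between single mice cannot be seen. How much of Gpr176 the knockout allele removes is not stated in the labels. Levels are log2 values, on which a difference of 1 is a factor of 2, and the level of one probe set cannot be set against that of another.

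The targeted gene followed the labels. The Gpr176 probe set gave 8.42 and 8.56 in KO CT18, 8.08 and 8.02 in KO CT6, 9.73 and 9.87 in WT CT18, and 9.37 and 9.31 in WT CT6. All 4 KO arrays were below all 4 WT arrays, with a KO minus WT difference of -1.30 ± 0.049 (SE; limma adjusted p = 3.37e-06), and where the probe set lies relative to the deletion is not given in the labels. All 11 SCN markers and all 7 neuron markers were above the filter. The markers of other cells in the dissected tissue were present too, with 9 of 9 measured oligodendrocyte, 10 of 10 astrocyte, 7 of 9 microglia, 9 of 10 endothelial and mural, 5 of 6 ependymal and 6 of 8 leptomeningeal markers above the filter. In such mixed tissue, fewer cells of a type and less RNA per cell cannot be told apart. The leptomeningeal markers, whose centred mean was 0.44 in KO CT6 A and 0.43 in WT CT18 A but -0.32 and -0.28 in KO CT18, differed between pools of 1 group.

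The respiratory chain sits in the inner mitochondrial membrane. Complex I takes electrons from NADH and complex II from succinate, ubiquinone carries them to complex III, cytochrome c carries them on to complex IV, and complex IV passes them to oxygen. Complexes I, III and IV pump protons as they work, and complex V, the ATP synthase, lets the protons back through its membrane rotor to make ATP. Neurons draw most of their ATP from this route, and SCN neurons are known for a daily rhythm of firing that is high in the day. Most subunits are encoded in the nucleus and a few in the mitochondrial genome, and transcription factors such as NRF1 and the ERR receptors are known regulators of the nuclear ones.

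Promoter sequence was at hand for 74 of the 91 genes, from RefSeq on mouse build GRCm38.p6, as windows of 300 bases that run from 250 bases before to 50 after each listed start. The NRF1 core, CGCATGCG, which reads the same on both strands, was, of the 4 motifs searched, the one whose share differed most between the respiratory genes and all promoters. It was found in 12 of the 74 genes (16.2%), against 2.07% of all 27025 genes with such a window. The 12 matches are shown as 30 bases in the direction of the gene, with the core in capitals, so that the letters around a shared core can be compared.
Atp5g2 (chr15:102671070-102671099, minus strand): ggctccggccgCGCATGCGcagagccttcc
Atp5j (chr16:84835105-84835134, minus strand): aggccagaataCGCATGCGtacagtgcagt
Atp5k (chr5:108434430-108434459, minus strand): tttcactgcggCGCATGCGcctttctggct
Atp5l (chr9:44920963-44920992, minus strand): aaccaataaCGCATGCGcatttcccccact
Cox6a1 (chr5:115349101-115349130, minus strand): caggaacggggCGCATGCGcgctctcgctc
Cycs (chr6:50566612-50566641, minus strand): ccatgctagctCGCATGCGcgcgcacaaac
Ndufa11 (chr17:56717692-56717721, plus strand): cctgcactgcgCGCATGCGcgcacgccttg
Ndufa8 (chr2:36049329-36049358, minus strand): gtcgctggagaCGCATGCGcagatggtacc
Ndufaf4 (chr4:24897960-24897989, plus strand): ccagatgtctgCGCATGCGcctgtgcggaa
Ndufaf5 (chr2:140170652-140170681, plus strand): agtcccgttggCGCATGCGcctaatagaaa
Uqcr11 (chr10:80406808-80406837, minus strand): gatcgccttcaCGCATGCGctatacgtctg
Uqcrc1 (chr9:108936668-108936697, plus strand): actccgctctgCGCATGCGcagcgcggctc

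The core is shared by construction and the flanks differ from gene to gene. In the order of the role of the products, the 12 are complex I genes (Ndufa8, Ndufa11), assembly factors (Ndufaf4, Ndufaf5), complex III genes (Uqcr11, Uqcrc1), cytochrome c (Cycs), a complex IV gene (Cox6a1) and complex V genes (Atp5g2, Atp5j, Atp5k, Atp5l). The YY1 core, AAGATGGC or its reverse complement GCCATCTT, was in 10 of 74 genes (13.5%), against 3.19% of all. The ERR site, AAGGTCA or TGACCTT, was in 7 of 74 (9.46%), against 5.38%. The E-box CACGTG, the palindrome that the clock activators bind, was in 6 of 74 (8.11%), against 8.09%. The windows of the respiratory genes were richer in G and C (median 58.5% against 52.7%), and this difference in base composition was not adjusted for. A match is a run of letters and does not show that a factor binds there.

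The first comparison asked how these genes differed between CT18 and CT6. Over both genotypes, Ndufa2 and Cyc1 rose at CT18 and Ndufa11 fell, and these were the 3 of 87 that passed limma's test at an adjusted p under 0.05 (2 higher, 1 lower). The background was larger, since 16.8% of the 12452 genes passed the same test. The calls of Cyc1 and Ndufa11 ended without some single arrays, as given for each below. At an unadjusted p under 0.05, 7 of the 87 passed (6 higher, 1 lower), against 30.5% of all genes. The median CT18 minus CT6 difference of the 87 was 0.016 and that of all genes 0.010, and the median size of the difference, sign aside, was 0.041 in the 87 and 0.064 in all genes. That median of the 87 was -0.0003 without KO CT18 A, with 43 of 87 above 0. It was 0.0034 without WT CT6 B, 0.0062 without WT CT18 B, 0.0065 without KO CT6 B and 0.027 without KO CT18 B. Without KO CT18 A alone it was thus near 0, while without both CT18 A arrays it stayed positive at 0.010. The 95% intervals of 85 of the 87 lay within ±0.25 and all 87 within ±0.5.

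Ndufa2, an accessory subunit of the arm of complex I that reaches into the matrix, had 10.62 and 10.57 in KO CT18, 10.26 and 10.32 in KO CT6, 10.35 and 10.46 in WT CT18, and 10.22 and 10.17 in WT CT6. In both genotypes each CT18 array was above each CT6 array, and all 4 CT18 arrays were above all 4 CT6 arrays. The difference was 0.26 ± 0.042 (SE; limma adjusted p = 0.00304), and it was 0.30 ± 0.059 in KO (adjusted p = 0.0151) and 0.21 ± 0.059 in WT (adjusted p = 0.070). The call over both genotypes held under each of the 16 other settings run, with adjusted p between 0.000644 and 0.0198. The call in KO alone ended without the KO CT18 A array (adjusted p = 0.0929), the KO CT18 B array (0.0609) or the KO CT6 A array (0.0911).

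Cyc1, the cytochrome c1 of complex III that hands electrons to cytochrome c, had 10.28 and 10.24 in KO CT18, 10.11 and 10.11 in KO CT6, 10.14 and 10.23 in WT CT18, and 10.10 and 10.00 in WT CT6. The 4 CT18 arrays lay above the 4 CT6 arrays, the WT CT18 A array by the least. The difference was 0.14 ± 0.041 (SE; limma adjusted p = 0.0415), with 0.15 in KO and 0.14 in WT. It missed the threshold without any single one of the 4 KO arrays, WT CT18 B or WT CT6 B (adjusted p 0.0831 to 0.131). The call also ended with no filter on low values (0.0698), with each array centred on its median (0.0606) and with the letters A and B as a replicate block (0.0602), while the difference lay between 0.12 and 0.17 under every setting run.

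Ndufa11, a subunit of the membrane arm of complex I, had 10.27 and 10.32 in KO CT18, 10.57 and 10.51 in KO CT6, 10.07 and 10.32 in WT CT18, and 10.28 and 10.38 in WT CT6. In KO both CT18 arrays were below both CT6 arrays, whereas in WT the CT18 B array lay between the CT6 arrays. The difference was -0.19 ± 0.057 (SE; limma adjusted p = 0.0494), with -0.24 ± 0.081 in KO and -0.14 ± 0.081 in WT, and a second probe set of the gene gave -0.15. The call ended in the fits without any single array other than WT CT18 B (adjusted p 0.069 to 0.151), with no filter on low values (0.0869) and with the mean of its probe sets (0.0630), and without WT CT18 A the difference was -0.13. Its upstream 250 bases (GRCm38.p6, chr17:56717512-56717761, plus strand) are shown because it was the called gene with a promoter entry, with the NRF1 core in capitals.
Ndufa11: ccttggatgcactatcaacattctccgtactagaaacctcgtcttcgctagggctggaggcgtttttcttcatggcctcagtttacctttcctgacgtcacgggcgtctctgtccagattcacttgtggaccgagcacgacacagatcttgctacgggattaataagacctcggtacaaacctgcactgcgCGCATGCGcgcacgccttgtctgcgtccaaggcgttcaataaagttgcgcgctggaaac

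**Figure D1:**
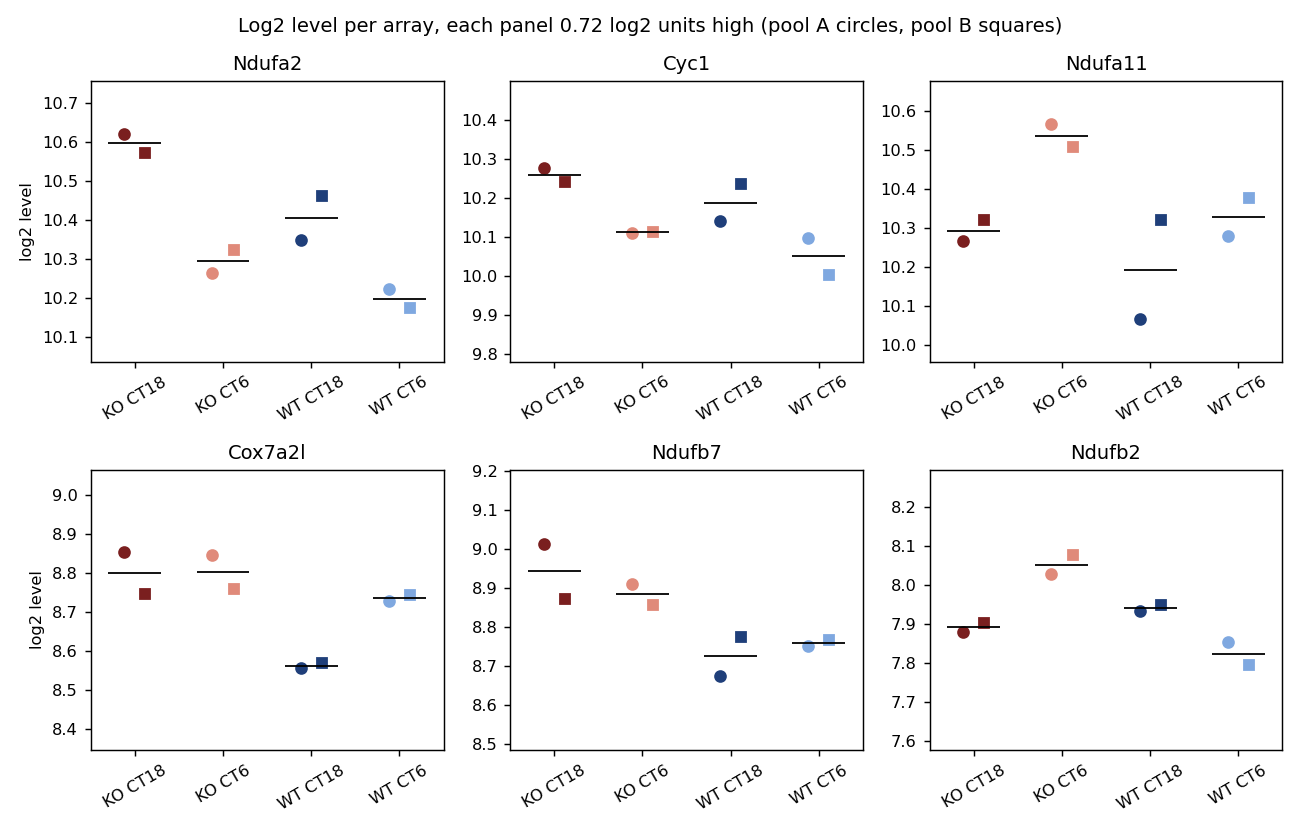
Log2 level (vertical axis) of 6 genes on each array, by group along the horizontal axis, with pool A as a circle, pool B as a square and the group mean as a line; every panel spans 0.72 log2 units. Ndufa2 and Cyc1 are higher at CT18 in both genotypes, Ndufa11 is lower at CT18 in KO, Cox7a2l and Ndufb7 have all 4 KO arrays above all 4 WT arrays, and Ndufb2 runs in opposite directions in KO and WT.

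The other complex I genes showed small differences between the times. The catalytic core subunits were near 0, with Ndufv1, which holds the flavin that takes electrons from NADH, at 0.05 ± 0.042, its partner Ndufv2 at 0.0012 ± 0.043 and Ndufs1, the largest iron-sulfur subunit, at -0.031 ± 0.038. Ndufs3, Ndufs7 and Ndufs8, core subunits of the part that leads electrons towards ubiquinone, were at -0.014, 0.064 and 0.032. Ndufc1, a small subunit of the membrane arm, had all CT18 arrays above all CT6 arrays and a difference of 0.12 ± 0.044 (limma adjusted p = 0.0946), with 0.17 in KO and 0.07 in WT. A second Ndufc1 probe set gave 0.062 over both genotypes. The complex I genes as a group had 24 of 35 above 0 and a median of 0.019. Left-out arrays moved this to 18 of 35 and 0.0016 without WT CT18 B, 19 and 0.0061 without KO CT18 A, 19 and 0.0085 without WT CT6 B, 26 and 0.032 without WT CT18 A, and 0.034 without KO CT18 B or WT CT6 A. Of the assembly factors 4 of 7 were above 0, and Ndufaf6 had the lowest value at -0.11 ± 0.052 (adjusted p = 0.172).

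In complex II, which is also an enzyme of the tricarboxylic acid cycle, the 4 genes went both ways without a call. The flavoprotein Sdha was at 0.088 ± 0.041, the iron-sulfur protein Sdhb at -0.076 ± 0.037, and the membrane anchors Sdhc and Sdhd at -0.024 and 0.076 (adjusted p 0.181 to 0.753). In complex III the Rieske iron-sulfur protein Uqcrfs1 was at -0.028 ± 0.049 and the core protein Uqcrc1 at -0.027 ± 0.044, both smaller than their SE. The small subunit Uqcr10 was at 0.14 ± 0.047 (adjusted p = 0.0764), with 0.20 in KO and 0.067 in WT. Cytochrome c itself, Cycs, was at -0.076 ± 0.045 (adjusted p = 0.293), and its other probe sets gave -0.039 and, below the filter, 0.25, so that the mean of all 3 was 0.045.

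Complex IV had 6 of 14 genes above 0 and a median of -0.0049, whose sign was not settled, since it was 0.0030 without KO CT18 B and 0.0025 (8 of 14) without WT CT18 A, and -0.029 without KO CT18 A and -0.021 without WT CT18 B. Cox4i1, the regulatory subunit that nearly all tissues use, was at -0.091 ± 0.042 and Cox5a and Cox5b, which lie on its matrix side, at -0.00093 and 0.034. Cox8a, the smallest subunit, had all CT18 arrays above all CT6 arrays and was at 0.11 ± 0.037 (limma adjusted p = 0.0669). In complex V the catalytic head subunits Atp5a1 and Atp5b were at 0.057 ± 0.048 and 0.029 ± 0.041, the central shaft Atp5c1 at -0.062 and the stalk subunit Atp5o at -0.048. Of the 3 genes that encode the same mature c subunit of the rotor, Atp5g2 was at 0.11 ± 0.037 (adjusted p = 0.064) with its 4 CT18 arrays above its 4 CT6 arrays, while Atp5g1 and Atp5g3 were at 0.019 and 0.036. The other Atp5g2 probe sets gave 0.11 and 0.12.

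Counted by arrays, 6 of the 87 had all 4 CT18 arrays above all 4 CT6 arrays (Atp5g2, Cox8a, Cyc1, Ndufa2, Ndufc1 and Ndufc2), against 12.6% of all genes, and 0 had all 4 below, against 8.3%. Within KO alone 1 of the 87 was called (Ndufa2), against 7.16% of all genes, and 7 had an unadjusted p under 0.05, against 22.5%. Both counts moved in some fits with 1 array left out. The all-gene shares of those fits are not given here, so the moves cannot be read as particular to these genes. Within WT alone limma called 0, against 6.94%, and 4 had an unadjusted p under 0.05, against 21.8%. Leaving out a KO array moved this last count, although it left the WT differences as they were. The median difference was 0.025 in KO (all genes 0.0091; 0.0051 without KO CT18 A and 0.055 without KO CT18 B) and -0.013 in WT (all genes 0.016). With the values as deposited the WT median of the 87 turned positive at 0.015, below 0.039 in all genes. With each array centred on its median it was 0.014, below 0.038 in all genes. It was also positive without WT CT18 A (0.010, all genes 0.011) and without WT CT6 A (0.014, all genes 0.012). The sign of the CT18 minus CT6 difference was the same in KO and in WT, which share no array, for 47 of the 87 (54.0%), against 68.2% of all genes.

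**Figure D2:**
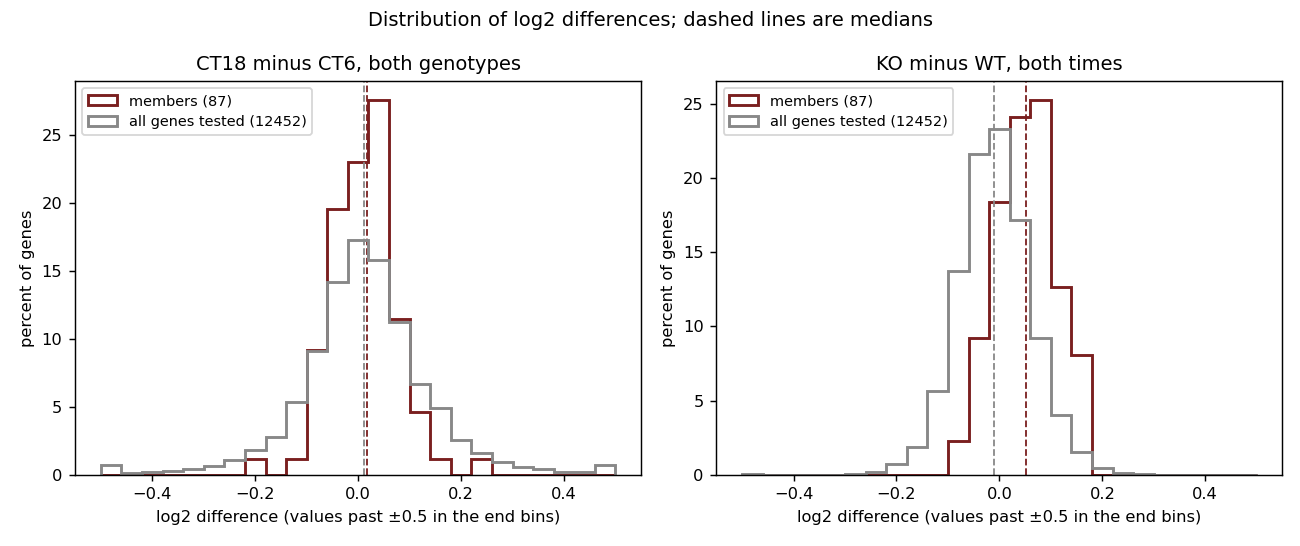
Share of genes in percent (vertical axis) by log2 difference (horizontal axis, bins of 0.04, values past ±0.5 in the end bins) for CT18 minus CT6 on the left and KO minus WT on the right, with the 87 respiratory genes in dark red, all 12452 genes in grey and dashed lines at the medians. On the left the respiratory genes are narrower than all genes around a like centre, and on the right they are shifted to 0.0525 against -0.0101 for all genes.

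The comparison of Gpr176-/- with wild type asked whether these genes differ where the receptor is missing. No single gene was called. Limma called 0 of the 87 over both times, while 3 of all 12452 genes (0.0241%) were called. At an unadjusted p under 0.05 there were 16 of the 87, all higher in KO, against 12% of all genes in either direction and 5.15% that were higher. The KO minus WT difference was above 0 in 72 of the 87 (82.8%), against 43.9% of all genes, and its median was 0.053, against -0.010 of all genes. The 95% intervals of 81 of the 87 lay within ±0.25 and all 87 within ±0.5.

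The median difference was near the median SE of a single respiratory gene (0.043). Centred on each gene's mean, the average of the 87 was 0.062 and 0.019 in KO CT18, 0.010 and 0.011 in KO CT6, -0.042 and -0.013 in WT CT18, and -0.0090 and -0.039 in WT CT6, with a pooled SD between replicate arrays of 0.021. All 4 KO arrays were above 0 and all 4 WT arrays below it, with KO CT18 A the highest and WT CT18 A the lowest. These 2 arrays lie at the ends of the first principal component of the 87 genes as well, which held 42.6% of their variance. Without both, an alternative chosen after seeing the data, 68 of 87 were above 0 and the median was 0.036 (all genes 0.0018). The count at an unadjusted p under 0.05 fell without both and without most single arrays. The all-gene shares of those fits are not given here.

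**Figure D3:**
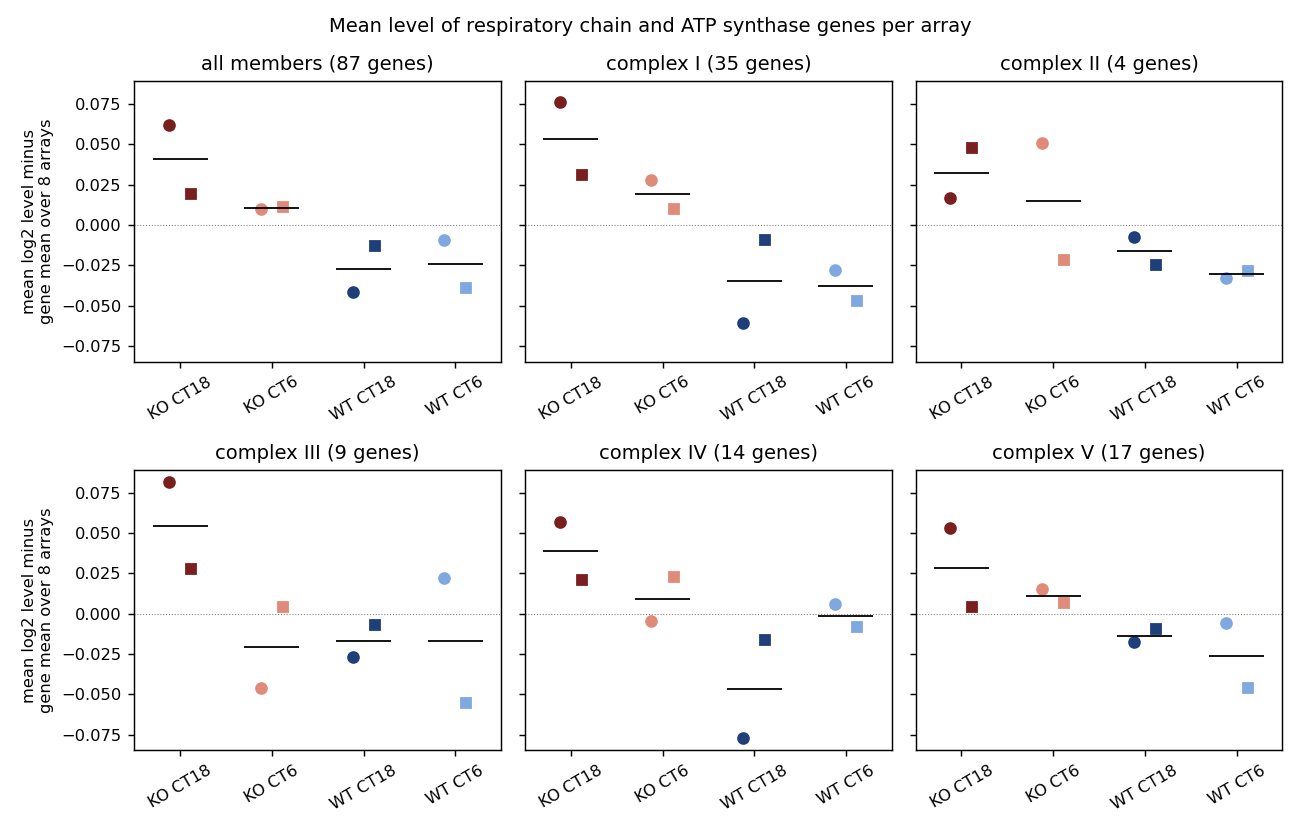
Mean log2 level after subtraction of each gene's mean over the 8 arrays (vertical axis), by group (horizontal axis), for all 87 genes and for complexes I to V; circles are pool A, squares pool B and lines the group means. Over all 87 genes the KO arrays lie between 0.0102 and 0.0619 and the WT arrays between -0.0416 and -0.009, and complexes III and IV do not separate the genotypes at CT6.

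The scaling of the arrays bears on the size of the shift. With each array centred on its median, 57 of 87 were above 0 at a median of 0.024, where all genes moved to -0.034, and 2 genes had an unadjusted p under 0.05. With the values as deposited, 70 were above 0 at a median of 0.047, against -0.011 of all genes. The distance between the 87 and all genes was 0.063 with quantile normalized values and 0.058 under both other scalings. All genes were also split by level into 4 bins of 3113 genes, a split chosen after seeing the data, and the brightest bin, which held 58 of the 87, had an all-gene median of -0.018 while those 58 had one of 0.053. The median residual SD between replicate arrays was 0.054 in the 87 and 0.063 in all genes.

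Among the 5 complexes, complex I had the largest median. Of its 35 genes 33 were above 0 in KO minus WT with a median of 0.074, and the count was 28 with centred arrays, 32 with deposited values and 30 to 34 with 1 array left out. That median was 0.040 with centred arrays and 0.045 without both CT18 A arrays. The medians of the other complexes were 0.047 in complex II, 0.014 in complex III, 0.037 in complex IV and 0.035 in complex V, and centred arrays took that of complex III to -0.0044 and that of complex II to 0.0095. With 1 array left out complex III lay between 0.0022 (without WT CT6 B) and 0.052 (without WT CT18 B), complex V was 0.061 without WT CT6 A and complex IV 0.023 without KO CT6 B. The assembly factors of complex I, which leave the enzyme once it is built, had 3 of 7 above 0 and a median of -0.018 that changed sign without KO CT18 A, KO CT18 B or KO CT6 A (0.011, 0.0040 and 0.018). Differences between complexes were not tested.

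**Figure D4:**
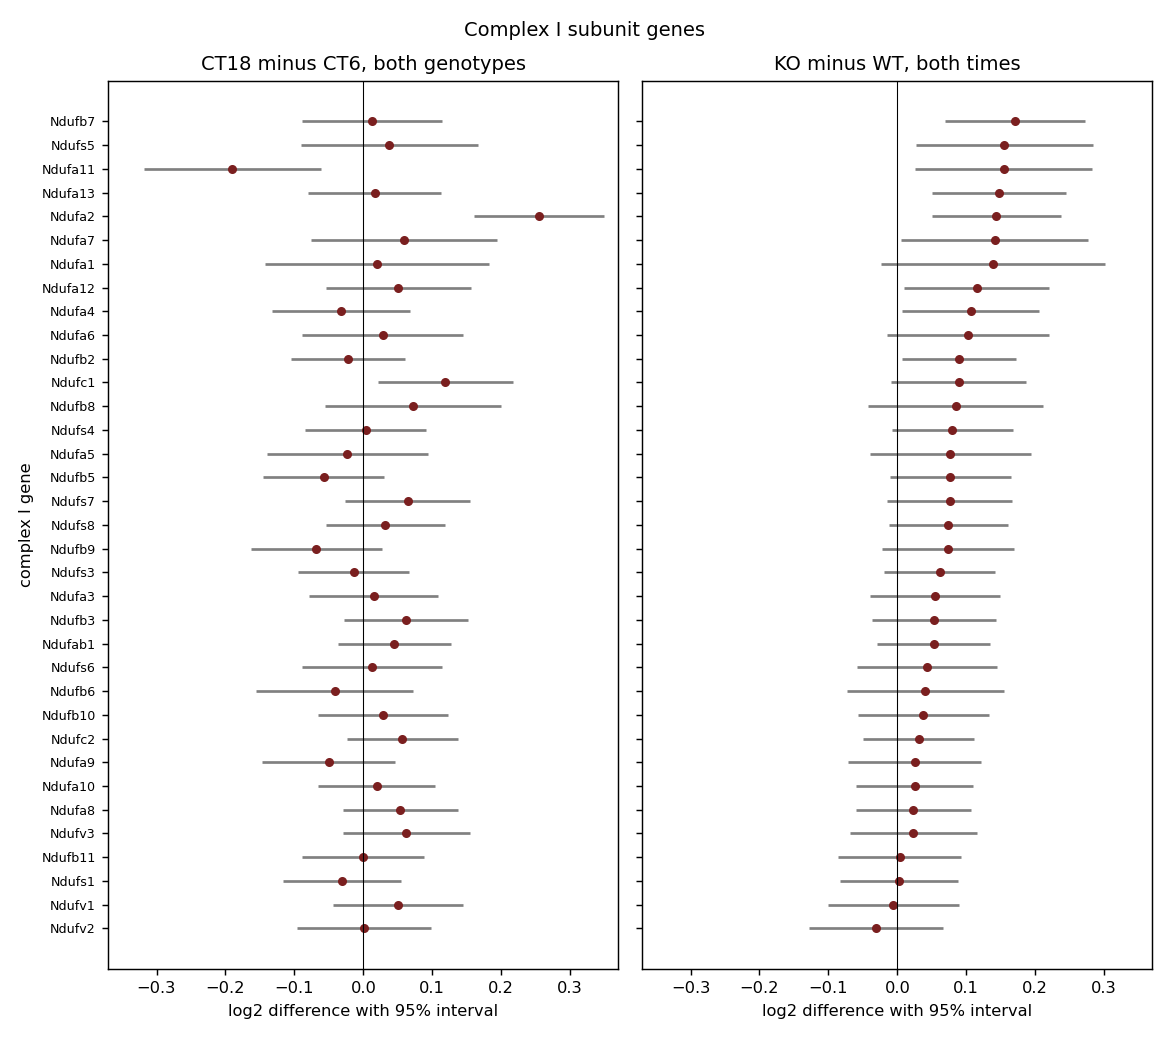
Log2 difference (horizontal axis) with its 95% interval for the 35 complex I genes (vertical axis, in the order of KO minus WT), for CT18 minus CT6 on the left and KO minus WT on the right. On the right 33 points lie above 0 and Ndufb7 leads at 0.171, and on the left Ndufa2 at 0.255 and Ndufa11 at -0.190 stand at the ends.

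Ndufb7, an accessory subunit of the membrane arm, had 9.01 and 8.87 in KO CT18, 8.91 and 8.86 in KO CT6, 8.67 and 8.77 in WT CT18, and 8.75 and 8.77 in WT CT6. All 4 KO arrays were above all 4 WT arrays. The difference was 0.17 ± 0.045 (SE), with 0.22 at CT18 and 0.12 at CT6, and limma's adjusted p was 0.342. Ndufa13, a complex I subunit that is also known as GRIM-19, had 9.86 and 9.80 in KO CT18, 9.84 and 9.75 in KO CT6, 9.63 and 9.70 in WT CT18, and 9.71 and 9.63 in WT CT6, again without overlap of the genotypes, and a difference of 0.15 ± 0.043 (adjusted p = 0.347).

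Ndufa2, described above for its rise at CT18, had a KO minus WT difference of 0.14 ± 0.042 (limma adjusted p = 0.342), with WT CT18 arrays above KO CT6 arrays. Ndufs5, which lies on the outer face of the membrane arm, had 8.97 and 8.98 in KO CT18, 9.06 and 8.94 in KO CT6, 8.84 and 8.92 in WT CT18, and 8.66 and 8.91 in WT CT6, and WT CT6 A was the lowest by far. Its difference was 0.16 ± 0.057 (adjusted p = 0.374), and another probe set is annotated to it together with a pseudogene, so signal of the gene and of near copies may not be fully separate. Ndufa11 was at 0.15 ± 0.057 in KO minus WT, and its second probe set gave 0.15. Of the other core subunits, Ndufs8 was at 0.074, Ndufs7 at 0.076, Ndufs3 at 0.062, Ndufs1 at 0.003, Ndufv1 at -0.0056 and Ndufv2 at -0.031. Ndufa4, named as a complex I gene but now known as a subunit of complex IV, was at 0.11 ± 0.044 (adjusted p = 0.405).

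In complex II the anchor Sdhd was at 0.13 ± 0.044 (limma adjusted p = 0.368), Sdhb at 0.078 ± 0.037, Sdhc at 0.016 and Sdha at -0.038. In complex III the hinge protein Uqcrh, at 0.13 ± 0.051, and Uqcr10, at 0.11 ± 0.047, were highest, Cyc1 was at 0.066, and Uqcrc1, Uqcrfs1 and the core protein Uqcrc2 were at 0.0051, -0.04 and -0.069. Cycs was at 0.08 ± 0.045, with 0.081 at CT18 and 0.080 at CT6.

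Cox7a2l, a relative of the Cox7a subunits that ties complexes III and IV into supercomplexes and of which C57BL/6J mice are known to carry a shortened form, had 8.86 and 8.75 in KO CT18, 8.85 and 8.76 in KO CT6, 8.56 and 8.57 in WT CT18, and 8.73 and 8.75 in WT CT6. The WT CT18 arrays were the lowest, and the lowest KO array was just above the highest WT array. The KO minus WT difference was 0.15 ± 0.042 (SE; limma adjusted p = 0.342), with 0.24 at CT18 and 0.066 at CT6. In WT the CT18 minus CT6 difference was -0.17 ± 0.059 (adjusted p = 0.117) and in KO -0.0026 ± 0.059. A second, dimmer probe set gave 0.082 for KO minus WT over both times and 0.070 at CT18, so it did not show a larger difference at CT18. For CT18 minus CT6 over both genotypes that probe set gave -0.18.

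Cox4i1 had 10.66 and 10.72 in KO CT18, 10.79 and 10.70 in KO CT6, 10.48 and 10.58 in WT CT18, and 10.66 and 10.65 in WT CT6, and here too the lowest KO array was barely above the highest WT array. Its difference was 0.13 ± 0.042 (SE; limma adjusted p = 0.368), that of Cox6b1, on the intermembrane side of complex IV, 0.12 ± 0.041, and those of Cox5a and Cox5b 0.075 and 0.076. In complex V the catalytic head genes were below 0, with Atp5a1 at -0.0084 ± 0.048 and Atp5b at -0.065 ± 0.041, while Atp5c1 was at 0.054, Atp5o at 0.088 and the small membrane protein Atp5mpl at 0.11 ± 0.043. Atp5g1, Atp5g2 and Atp5g3 were at 0.018, 0.027 and 0.014.

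**Figure D5:**
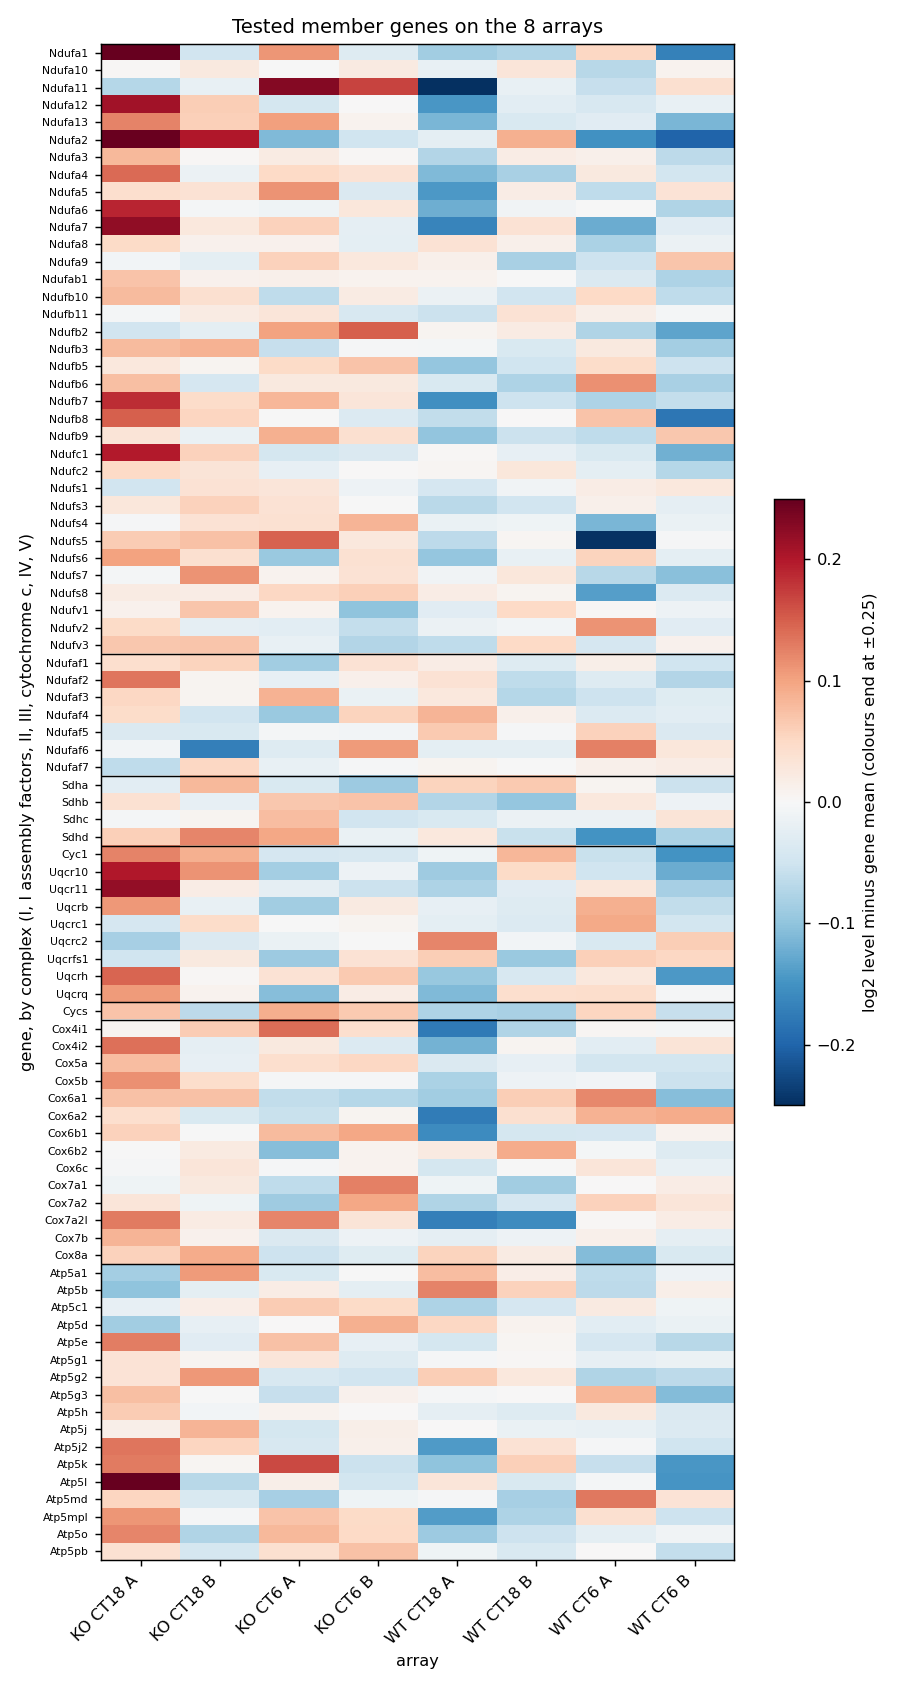
Log2 level minus the gene's mean over 8 arrays for the 87 tested genes (vertical axis, by complex, lines between complexes) on each array (horizontal axis), red above and blue below the mean, with colours ending at ±0.25. KO CT18 A has the highest mean over the 87 genes (0.0619) and WT CT18 A the lowest (-0.0416), and Ndufa2 is red on both KO CT18 arrays.

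Counted by arrays, 9 of the 87 had all 4 KO arrays above all 4 WT arrays (Cox4i1, Cox5b, Cox7a2l, Ndufa13, Ndufab1, Ndufb7, Ndufs4, Ndufs5 and Ndufs8), against 2.1% of all genes, and 0 had all 4 below, against 2.13%. The difference was above 0 at both times in 55 of the 87 (63.2%), against 24.3% of all genes, and below 0 at both in 6. At CT18 limma called 0 of 87, against 0.00803% of all genes. An unadjusted p under 0.05 was found in 12, of which 11 were higher. Of all 12452 genes 12.5% had such a p in either direction, with 657 genes higher. The median of the 87 at CT18 was 0.070 (all genes -0.016). That median was 0.053 without KO CT18 A (all genes 0.00076) and 0.090 without KO CT18 B (all genes -0.034). It was 0.056 without WT CT18 A (all genes -0.0096) and 0.032 without both A arrays (all genes 0.0087). The count of 12 moved in these fits too, and their all-gene shares are not given here. At CT6 limma called 0 of 87, against 0.00803%, and 6 had an unadjusted p under 0.05, all higher. Of all 12452 genes 4.24% had such a p in either direction, with 296 genes higher. The median of the 87 at CT6 was 0.032 (all genes -0.0060). The count of 6 at CT6 was 3 with centred arrays, and it moved in fits with 1 array left out. The CT6 median was 0.018 without WT CT6 B and 0.016, with 49 of 87 above 0, with centred arrays.

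The genes with the smallest p at CT18 were Cox7a2l, Ndufb7, Ndufa12, Ndufa2 and Ndufa13 (limma adjusted p 0.319 to 0.351). Ndufa12, an accessory subunit of the matrix arm, had 10.01 and 9.87 in KO CT18, 9.76 and 9.80 in KO CT6, 9.66 and 9.78 in WT CT18, and 9.76 and 9.78 in WT CT6, which gives 0.22 ± 0.066 at CT18 and 0.0078 ± 0.066 at CT6. KO CT18 A was its highest array and WT CT18 A its lowest. The lowest KO minus WT value at CT18 was that of Atp5b at -0.15 ± 0.058, from 12.34 and 12.41 in KO CT18, 12.46 and 12.41 in KO CT6, 12.56 and 12.50 in WT CT18, and 12.37 and 12.45 in WT CT6. At CT6 the smallest p belonged to Ndufb2, Ndufs5, Ndufs8, Ndufa11 and Sdhd, with differences of 0.23, 0.21, 0.14, 0.21 and 0.15 (adjusted p = 0.975 for each).

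Whether the CT18 minus CT6 difference itself differed between KO and WT was tested as an interaction. Limma called 0 of the 87 and 0 of all genes (0%), and 2 of the 87 had an unadjusted p under 0.05, against 4.86% of all genes. That count of 2 moved in most fits with 1 array left out, and the all-gene shares of those fits are not given here. With all arrays the 2 were Ndufb2 and Ndufa12. Ndufb2, a small subunit of the membrane arm, had 7.88 and 7.90 in KO CT18, 8.03 and 8.08 in KO CT6, 7.93 and 7.95 in WT CT18, and 7.85 and 7.80 in WT CT6. In KO both CT18 arrays were below both CT6 arrays, and in WT both were above, so that CT18 minus CT6 was -0.16 ± 0.052 in KO and 0.12 ± 0.052 in WT. The interaction was -0.28 ± 0.074 (95% interval -0.44 to -0.11; adjusted p = 0.944), and it lay between -0.31 and -0.25 under the other settings.

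Ndufa12 had an interaction of 0.21 ± 0.094, followed by Atp5b at -0.18 ± 0.082, Cox7a2l at 0.17 ± 0.083 and Atp5md, a small subunit of the ATP synthase membrane part, at 0.18 ± 0.089 (limma adjusted p = 0.944 for each). The median interaction of the 87 was 0.033, against -0.014 of all genes, and it was 0.0090 without the A arrays of both CT18 groups, 0.015 without WT CT6 A, 0.022 without WT CT18 A, 0.053 without KO CT18 B and 0.056 without WT CT6 B. With the values as deposited and with centred arrays it was 0.013, against -0.046 of all genes under both. The upstream 250 bases of Ndufb2 (GRCm38.p6, chr6:39592315-39592564, plus strand) are shown as those of the gene with the smallest interaction p, with the ERR site in capitals.
Ndufb2: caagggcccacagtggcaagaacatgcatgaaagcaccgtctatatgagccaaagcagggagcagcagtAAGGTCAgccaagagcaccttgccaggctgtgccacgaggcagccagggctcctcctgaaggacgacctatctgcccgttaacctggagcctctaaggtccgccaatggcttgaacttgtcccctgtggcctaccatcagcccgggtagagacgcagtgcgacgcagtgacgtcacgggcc

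The genes with and without each run of promoter letters were described by their medians, and differences between them were not tested. The 12 genes with an NRF1 core had a median of 0.047 for CT18 minus CT6 and 0.031 for KO minus WT, against 0.018 and 0.058 in the 60 tested genes with a window and no core. The 7 genes with an ERR site had 0.038 and 0.089, against 0.016 and 0.053 in the 65 without. For the E-box the 6 with it had 0.043 and 0.036, against 0.018 and 0.058 in the 66 without, and for the YY1 core the 10 with it had 0.028 and 0.065, against 0.020 and 0.053 in the 62 without.

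Several subunits exist as a common isoform and as one known for muscle, lung or testis. The probe sets of Cox7b2, Cox8b and Cox8c, known from testis or muscle, and of Ndufa4l2, a relative of Ndufa4 known to respond to low oxygen, lay under the filter (log2 6.82) on average, at 5.22, 6.03, 6.52 and 6.42. The muscle isoforms Cox6a2 and Cox7a1, the testis isoform Cox6b2 and the lung isoform Cox4i2 were above it, at 8.11, 7.15, 7.01 and 7.12. All but Cox6a2 thus lay close to the filter. In that order these isoforms were at -0.066 ± 0.052, -0.041 ± 0.048, 0.067 ± 0.041 and 0.0025 ± 0.049 for CT18 minus CT6. For KO minus WT they were at -0.022, 0.039, -0.039 and 0.052. Their common partners Cox6a1, Cox7a2, Cox6b1 and Cox4i1 were at 0.0071, 0.015, 0.12 and 0.13 in KO minus WT, and Cox7b, the partner of Cox7b2, at 0.023. A probe set above the filter does not by itself show that the isoform is used, and none of these was called in either contrast.

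Neighbouring pathways gave a setting for these values. Of 38 assembly factors outside the symbols above, 5 rose and 4 fell at CT18 over both genotypes, with a median of 0.035. Of all 12452 genes 1250 rose (10%) and 846 fell (6.79%), which is the background for the counts of each list here. Among them were Ttc19 at -0.25 ± 0.037 and Bcs1l at 0.20 ± 0.041, both factors of complex III, and Ecsit, of complex I, at -0.20 ± 0.037 (limma adjusted p = 0.00176, 0.00911 and 0.00622). Of 77 mitochondrial ribosome genes 6 rose and 0 fell, led by Mrpl41 at 0.50 ± 0.054. Of 17 regulators of respiratory genes 3 rose and 0 fell, with the coactivator Ppargc1a at 0.21 ± 0.038, and the median was 0.10.

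Of 13 genes of glycolysis 2 rose and 0 fell at CT18, both phosphofructokinases, Pfkp at 0.32 ± 0.038 and Pfkl at 0.19 ± 0.041 (limma adjusted p = 0.000418 and 0.0133), and the median was 0.11. Of 12 mitochondrial carriers 2 rose, Vdac3 and the ADP/ATP carrier Slc25a4, each at 0.15. Of 17 genes of the tricarboxylic acid cycle and pyruvate dehydrogenase 0 rose and 1 fell, Pdhb at -0.17 ± 0.049. In KO minus WT limma called 0 genes of these 6 lists. At an unadjusted p under 0.05 there were 18 mitochondrial ribosome genes and 4 assembly factors, all higher. There were also 1 gene of glycolysis and 1 of the tricarboxylic acid cycle, both lower, and 0 carriers and 0 regulators. Of all genes 12% had such a p in either direction and 5.15% were higher with such a p. The medians of the 6 lists were 0.053 in the mitochondrial ribosome (58 of 77 above 0), 0.025 in glycolysis, 0.018 in the assembly factors, -0.0096 in the tricarboxylic acid cycle, -0.013 in the carriers and -0.037 in the regulators.

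Transcripts of the mitochondrial genome itself were represented by 4 probe sets named COX2 or ND3 and annotated to chromosome MT, found after seeing the annotation and not among the 91. Their KO minus WT differences were -0.0018 to -0.056 and their CT18 minus CT6 differences -0.031 to 0.010, both without a test.

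Levels of the marker lists stand beside these values. Between KO and WT limma called 0 of 65 markers, against 0.0241% of all genes. An unadjusted p under 0.05 was found in 12 of the 65, against 12% of all genes. Of all genes 43.9% were above 0 in KO minus WT, with a median of -0.010. In KO minus WT 0 of 9 oligodendrocyte markers were above 0 (median -0.091), 0 of 9 endothelial and mural (-0.077), 1 of 10 astrocyte (-0.045), 1 of 6 leptomeningeal (-0.084) and 0 of 7 neuron markers (-0.032), while 5 of 5 ependymal (0.12), 6 of 7 microglia (0.084) and 6 of 11 SCN markers (0.0093) were. At CT18 alone the KO minus WT medians were -0.48 in the leptomeningeal, -0.14 in the endothelial and mural (3 of 9 at an unadjusted p under 0.05, all lower), -0.13 in the oligodendrocyte, -0.10 in the astrocyte (4 of 10, all lower), 0.10 in the ependymal and 0.14 in the microglia markers. Of all 12452 genes 12.5% had such a p at CT18, with 901 genes lower, and the all-gene median was -0.016. KO CT18 A, the array with the highest mean of the 87, had the lowest centred mean of the 8 arrays in the astrocyte markers (-0.073). It was also lowest in the endothelial and mural markers (-0.140, KO CT18 B -0.136) and the leptomeningeal markers (-0.32, WT CT18 B -0.29). WT CT18 A, the lowest in the 87, was highest in the astrocyte markers (0.12). The highest leptomeningeal mean was that of KO CT6 A (0.44), and the lowest oligodendrocyte mean that of WT CT18 B (-0.18, KO CT18 A -0.17). The mean level of all measured oligodendrocyte markers was 9.28 to 9.56 over the KO arrays and 9.27 to 9.63 over the WT arrays, and that of the neuron markers 10.64 to 10.74 and 10.68 to 10.79. For the astrocyte markers it was 10.29 to 10.36 in KO and 10.30 to 10.48 in WT, for endothelial and mural 8.09 to 8.32 and 8.16 to 8.36, and for leptomeningeal 7.52 to 8.10 and 7.55 to 8.19. For the microglia markers it was 7.65 to 7.72 in KO and 7.57 to 7.66 in WT, and for ependymal 8.56 to 8.64 and 8.42 to 8.63. Between CT18 and CT6 over both genotypes, the median difference was -0.24 in the leptomeningeal, -0.19 in the SCN, -0.18 in the endothelial and mural and -0.11 in the ependymal markers. Below the filter on average were Aif1 and Itgam of microglia, Kdr of endothelium, Rax of tanycytes, and Lum and Foxc1 of the leptomeninges. The part of these cells in the values of the respiratory genes was not tested.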

How the data were processed

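RNA of 8 pools of laser-dissected SCN (10 animals each) was measured on Affymetrix whole-transcript arrays after column extraction and biotin labelling, per the labels' protocols. The authors deposited log2 values for 28853 probe sets, with no account of their summary or normalization in the sources used here. Lower quartiles of the arrays spread over 0.139, above the limit of 0.1, so the columns were quantile normalized, which hides any change shared by most genes. Probe sets were named from the platform annotation, and 21789 had 1 symbol. Genes under the 40th percentile of all probe sets (log2 6.82) were not tested.

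A mean per group was fitted in limma 3.58.1 (R 4.3.3) to all 8 arrays, with 4 residual and 5.58 prior degrees of freedom, and 7 contrasts were taken. Adjusted p-values are Benjamini-Hochberg over the 12452 genes, and a gene was called under 0.05. Values after ± are standard errors, and intervals are 95% intervals of the moderated fit. The median standard error was 0.045 over both conditions, 0.064 within one and 0.090 for the interaction, and the number of arrays limits the precision. The script was tested on simulated data.

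The genes and lists were chosen with earlier results of these data known. Named were all called genes of a contrast or, below 5 calls, the 5 with the smallest p, the 3 highest and lowest differences, catalytic subunits and isoform sets. Alternatives were 2 other scalings, 2 other filters, the mean of all probe sets, an intensity trend, a replicate block and each array left out. The fit without the A arrays of both CT18 groups was added after seeing the data. Arrays of the same letter did not deviate together (correlations of the A minus B difference between groups -0.22 to 0.26), so letters were not taken as pairs.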

Additional observations from a re-analysis of the deposited data

How the results depend on the processing

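The genes with the smallest p in each comparison kept the sign of that difference under every setting that tested them. Over both genotypes, the CT18 against CT6 test called 3 of 87 respiratory genes. It called 1 of 91 with no filter on low values, 6 of 81 with the filter at the 60th percentile and 5 of 87 with an intensity trend. Only Ndufa2 was called in each of these, and at the 60th percentile Atp5g2, Cox8a and Uqcr10 joined the 3. In KO alone 1 gene was called, and in WT alone 0, and 1 (Ndufa2) with the 60th percentile and with the trend. Fits with arrays left out moved the counts over both genotypes and in KO too. The shares of all genes called under these other settings are not given here, so the moves cannot be read as particular to the respiratory genes. KO against WT and the interaction called 0 of the 87 under every setting run.

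The median difference of the 87 between CT18 and CT6 was -0.00031 to 0.0272 over both genotypes and 0.00511 to 0.0547 in KO with 1 array left out. In WT it was -0.0269 to 0.0139 with 1 array left out and 0.0102 without both CT18 A arrays. It was 0.0150 with deposited values (all genes 0.0389) and 0.0139 with centred arrays (all genes 0.0378). For KO minus WT it was 0.0245 over both times and 0.0320 at CT18 with centred arrays, and 0.0319 at CT18 without both CT18 A arrays. That of the interaction was 0.0153 to 0.0563 with 1 array left out and 0.0090 without both. The cause of these moves was not tested.

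The letters A and B were not taken as pairs of arrays. With them as a replicate block, the CT18 against CT6 test over both genotypes called 2 of the 87, and Cyc1 had an adjusted p of 0.0602. With 2 arrays a group, the median standard error of a single gene was 0.045 over both conditions, which limits what could be called.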
